A study of Mus musculus with 4 samples.

Results

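The 45 genes described here carry a cell through its division cycle: the cyclins and kinases that start it, the machinery that licenses and copies DNA, and the kinases, checkpoint proteins and motors of mitosis. Their probes were found by gene name among the non-control spots of 4 Agilent mouse expression arrays. All 45 genes were on the array, with 75 probes and 102 spots per array, out of 26683 genes in all. The study asked how medium from adipose tissue-derived stem cells (ADSC medium) acts on hepatic stellate cells given IL17A, an inflammatory cytokine.

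The cells were IMS/N, a hepatic stellate line that SV40 virus had immortalized, derived from healthy 129/Sv mice, and all 4 groups share it. One group was left untreated, 1 received recombinant murine IL17A, 1 received ADSC medium, and 1 received both. The stem cells behind the medium came from inguinal subcutaneous fat of male C57BL/6J mice of 8 to 10 weeks. Doses and exposure times are not given in the sources used here. Each group is 1 culture on 1 array, so differences between groups lack any replicate check, no p-value can be given, and "higher" and "lower" describe pairs of arrays.

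In the division cycle, D cyclins with Cdk4 and Cdk6, and then cyclin E with Cdk2, phosphorylate the retinoblastoma (Rb) proteins and so release E2F factors, which switch on replication genes. Genes of mitosis are switched on later, largely through promoter elements called CHR and CCAAT, and Cdk inhibitors such as p21 hold the kinases back. The large T antigen of SV40 binds both the Rb proteins and p53, so lines made with this virus cycle with part of that control bypassed.

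The promoters of these genes were searched for those elements. RefSeq promoter windows on GRCm38.p6, from 250 bases before to 50 after each gene's start, were given for 36 of the 45 genes. The windows were searched on both strands for 4 forms of the E2F site (TTTCGCGC, TTTGGCGC, TTTCCCGC and TTTGCCGC), for the CHR element (TTTGAA or TTTAAA, the latter its own reverse complement) and for the CCAAT box (CCAAT), and a gene with several windows counted if any held the motif. An E2F site was found for 9 of the 36 genes, or 25.0%, against 2.6% of all 27025 genes with a window. It was found for 6 of 8 licensing genes and for 1 of 17 mitosis genes. A CHR element was found for 20 of the 36 genes, or 55.6%, against 30.6% of all genes, and for 14 of the 17 mitosis genes. The CCAAT box was found for 26 members, or 72.2%, against 41.1%, and both CHR and CCAAT for 18 members, against 13.4% of all genes. A match describes letters in a window and is not a measured binding site.

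Stretches just upstream of the start of 5 members are printed here, 5′ to 3′ on the gene's strand, with motif letters in capitals, because they span the types found. Those of Mcm6 (chr1:128359706-128359825, minus strand) and Cdc6 (chr11:98908001-98908150, plus strand) hold E2F sites; in Mcm6 the first pair of sites overlap, and in Cdc6 the site reads on the opposite strand. Those of Cdk1 (chr10:69352913-69353052, minus strand) and Ccnb1 (chr13:100786487-100786596, minus strand) hold CHR and CCAAT letters, and Cdk1 also holds an E2F site. That of Cdk4 (chr10:127063425-127063534, plus strand) holds none of the motifs.
Mcm6: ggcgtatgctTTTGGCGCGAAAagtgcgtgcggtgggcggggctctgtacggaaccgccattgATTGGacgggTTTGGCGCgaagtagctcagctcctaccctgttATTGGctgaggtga
Cdc6: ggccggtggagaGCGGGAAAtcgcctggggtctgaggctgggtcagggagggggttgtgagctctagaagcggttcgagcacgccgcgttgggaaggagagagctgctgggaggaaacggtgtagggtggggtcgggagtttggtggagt
Cdk1: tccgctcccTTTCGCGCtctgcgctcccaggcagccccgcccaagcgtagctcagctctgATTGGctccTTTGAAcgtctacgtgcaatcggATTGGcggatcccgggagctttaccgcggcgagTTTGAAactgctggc
Ccnb1: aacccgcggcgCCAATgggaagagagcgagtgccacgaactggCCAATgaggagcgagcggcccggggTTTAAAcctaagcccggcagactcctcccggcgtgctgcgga
Cdk4: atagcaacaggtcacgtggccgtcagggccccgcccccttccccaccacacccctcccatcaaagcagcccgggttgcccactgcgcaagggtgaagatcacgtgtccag

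Of 43379 non-control spots per array, 58.1% to 60.5% were well above background and 0 were saturated. Slide 1 held the arrays without medium and slide 2 those with it. Arrays with and without IL17A can thus be compared within a slide, at 1 culture each, while medium and slide cannot be told apart. Mesenchymal markers were bright on all 4 arrays, among them Vim, Acta2 and Col1a1, with 5 to 7 of 9 stellate and mesenchymal markers well above background, whereas the stellate markers Reln and Hand2 were dim on all 4 and Lrat was bright only on the array with both agents. None of 4 hepatocyte markers was above background on any array. On every array 3 of 5 macrophage markers were (Cd68, Csf1r and Lyz2, not Adgre1 or Clec4f), 2 of 4 endothelial markers (Stab2 and Kdr, not Pecam1 or Cdh5), 2 of 3 cholangiocyte markers (Krt19 and Sox9, not Epcam) and 2 of 4 adipocyte markers (Fabp4 and Cebpa, not Adipoq or Plin1). In the order untreated, IL17A, ADSC medium and both, the summed linear signal of the stellate and mesenchymal list was 103568, 71143, 85191 and 64390, and that of the macrophage list 80.5, 95.9, 118 and 123. The endothelial sum was 32.5, 28.2, 32.7 and 24.9, the cholangiocyte sum 986, 541, 1107 and 587, and the adipocyte sum 151, 354, 155 and 202. The mesenchymal, endothelial and cholangiocyte sums were lower on the arrays with IL17A than on the matching arrays without it. Each linear sum follows its brightest genes. On the log2 scale, Vim differed with IL17A by -0.59 without medium and -0.50 in it, and Krt19 by -1.39 and -2.21. In that order Col3a1 was higher by 0.35 and 0.025, Pdgfrb gave -0.32 and 0.23, and Sox9 -0.16 and -0.01. The endothelial sum rests on Stab2 and Kdr, at log2 signals of 3.85 and 3.94 in untreated cells. The part of these cell types in the values below was not tested. In such bulk samples, fewer cells of a type and less RNA per cell cannot be told apart.

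A level below is the log2 processed signal of a probe after quantile normalization of the 4 arrays, and a difference is one level minus another for the same probe. Each gene is given by its brightest probe, and levels of different genes are not compared, since probes differ in brightness. All 45 genes were well above background on all 4 arrays, and 44 had a mean level of 7 or more, where replicated spots of a probe gave a technical SD of 0.079 for a difference between arrays. The exception is Cdk2, in the range below 5, where that SD was 0.361. This SD comes from the spots within an array. It thus holds no variation between cultures, labellings, hybridizations or slides.

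The cell cycle genes as a group stayed close to one level across the 4 arrays. The distance from a gene's lowest to its highest array had a median of 0.24 on the log2 scale, from 0.04 for Mcm2 to 1.54 for Ccnd1. It was under 0.5 for 41 of the 45 genes, or 91.1%, against 62.4% of the 14480 genes bright on all arrays and 75.6% of those with a mean level of 7 or more. The 4 genes that passed 0.5 were Ccnd1, Cdk6 (0.57), Cenpa (0.56) and Cdt1 (0.54). A distance of 1 or more was reached by 1 member, against 11.6% of all genes and 5.76% of the brighter ones. The untreated array was the lowest of the 4 for 18 members, the IL17A array for 11, the ADSC medium array for 6 and the array with both for 10. Among the 9924 genes at level 7 or more these counts were 2981, 2935, 1611 and 2397, so untreated was the most frequent and ADSC medium the least frequent lowest array there too.

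**Figure D1:**
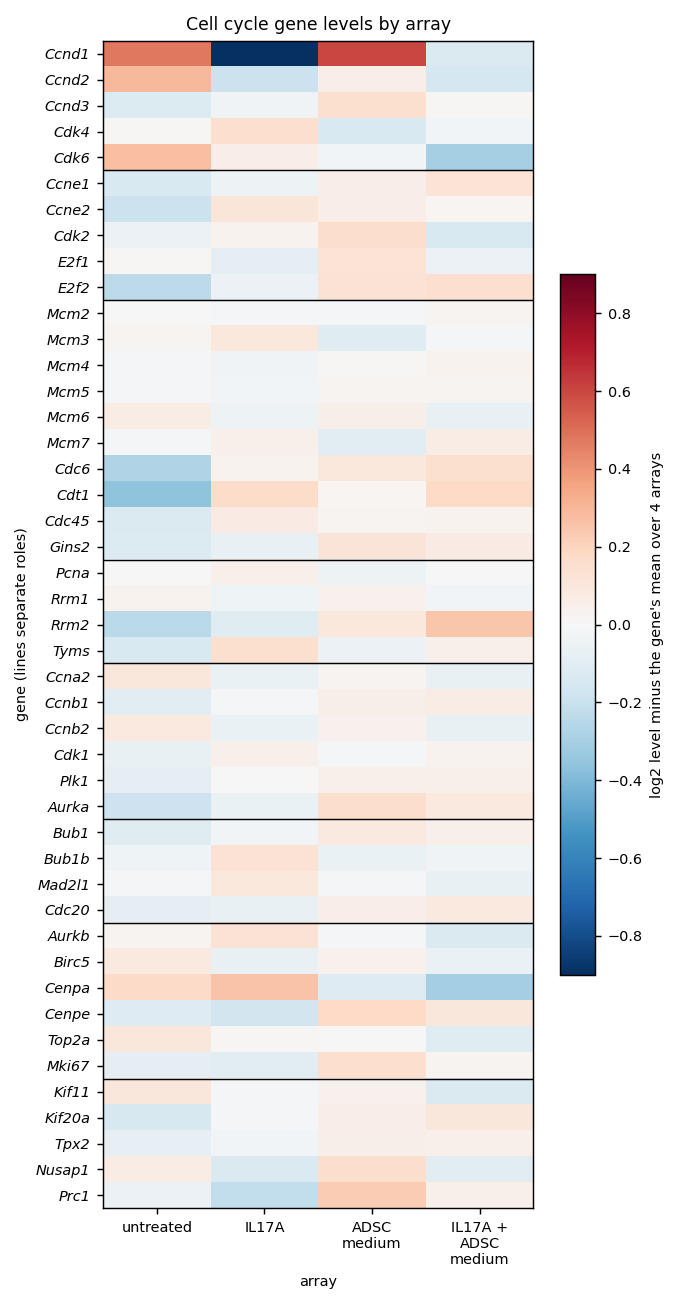
Level of each of the 45 genes on each array, as the log2 level minus the gene's own mean over the 4 arrays (red higher, blue lower), with lines between roles. Ccnd1 is the only gene with cells near the ends of the scale, and its cell for the IL17A array lies just past the lower end; most other rows are pale.

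With IL17A alone, 1 of the 45 members was at least 2-fold away from the untreated level, and it was lower: Ccnd1, the gene of cyclin D1. Over all 15869 measured genes, 4.46% passed this rule and 2.29% were at least 2-fold lower. At 1.5-fold the count was again Ccnd1 alone, against 12.2% of all genes in either direction and 6.53% lower. The 45 differences had a median of 0.07, against 0.00 for all genes bright on both arrays, with 27 above 0 and 18 below; of all genes, 7472 of 14708 were above 0. Their median size was 0.11, against 0.16 for all genes and 0.13 for genes at level 7 or more. Differences beyond 2 technical SDs were seen for 12 members, or 26.7%, against 41.3% of genes at level 7 or more. Those 12 were split into 7 higher and 5 lower.

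When IL17A was given in the presence of ADSC medium and compared with medium alone, no member passed the 2-fold rule, against 4.68% of 16068 genes. At 1.5-fold, Ccnd1 alone passed and was lower, against 13.4% of all genes in either direction and 5.89% lower. The median difference was -0.04, with 20 members above 0 and 25 below, beside -0.03 for all genes, of which 8515 of 14920 were below 0. Of the 21 mitosis genes, 15 were below 0, with a median of -0.08. The IL17A comparisons without and with medium share no array, and 32 of 45 members, or 71.1%, had the same sign in both, against 69.4% of genes at level 7 or more. Beyond 2 technical SDs in both, 5 members were lower each time (Ccnd1, Ccnd2, Cdk6, Nusap1 and Prc1) and 0 were higher. They are 11.1% of the members, against 19.1% of the 9924 genes at level 7 or more, of which 1202 were lower and 690 higher both times. Among the 5 members, the probes of Cdk6 and those of Nusap1 differed in direction with IL17A alone.

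**Figure D2:**
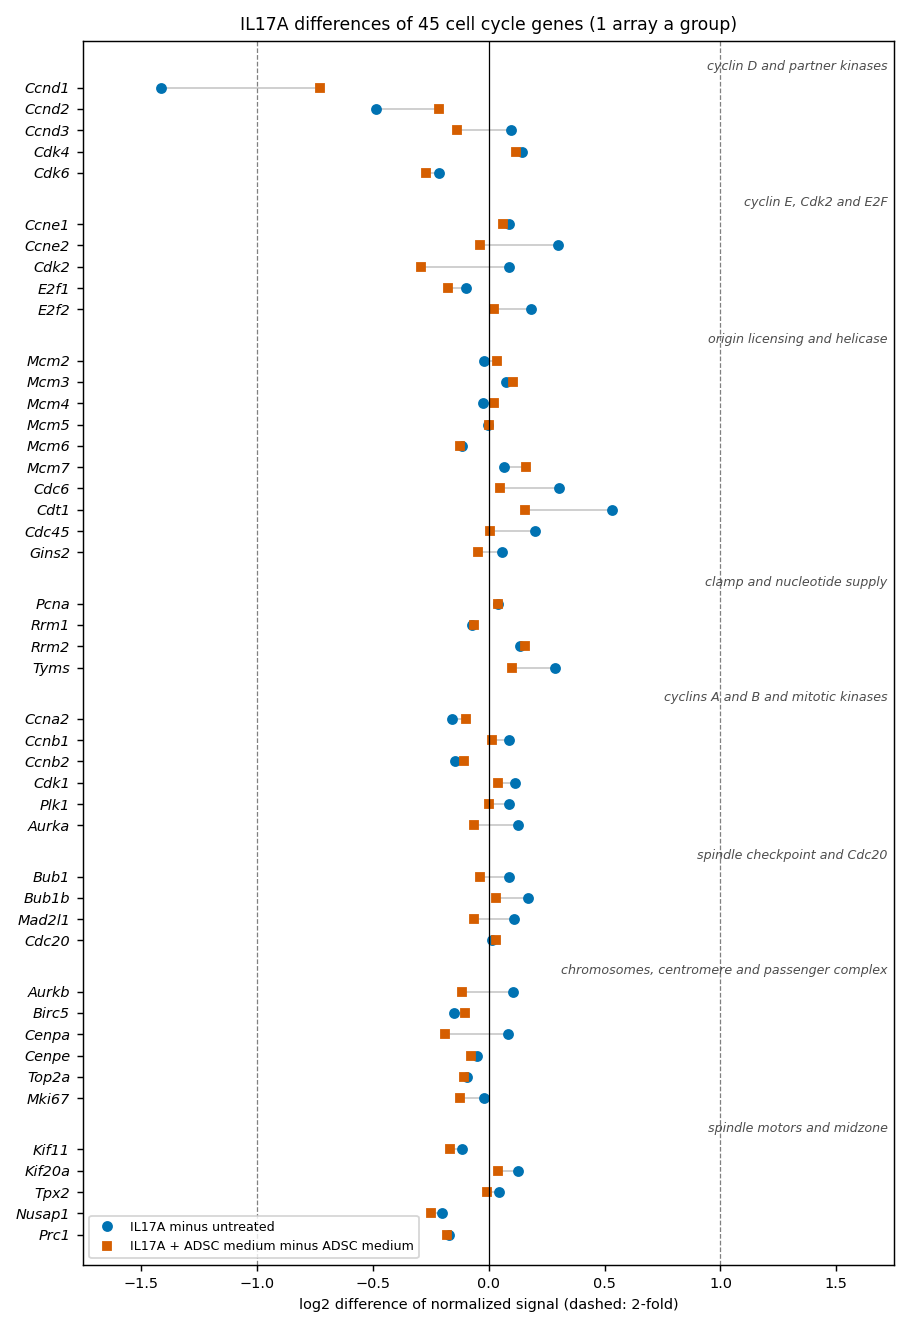
Log2 difference between arrays with and without IL17A for each gene, ordered by role, with 1 array a group. Circles are without medium (IL17A minus untreated) and squares with medium (both minus ADSC medium). Ccnd1 lies at -1.42 and -0.73, past every other member, and the rest crowd around 0.

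ADSC medium alone against untreated cells left every member within 0.5 of its untreated level. No member passed the 2-fold or the 1.5-fold rule, against 5.42% and 15.2% of 16102 genes. The median was 0.09, beside 0.04 for all genes, with 29 members above 0, and of all genes 8396 of 14894 were. The lowest was Cdk6 at -0.30 and the highest Cdt1 at 0.38. Medium added to IL17A, compared with IL17A alone, also left all members short of 2-fold, against 6.33% of 15876 genes. At 1.5-fold, only Ccnd1 passed and was higher, against 17.9% of genes in either direction and 8.99% higher. The median was 0.03, beside 0.02 for all genes.

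The medium comparisons without and with IL17A share no array either, though both run from slide 1 to slide 2. Of the 45 members, 35 had the same sign in both, or 77.8%, against 79.0% of genes at level 7 or more. Beyond 2 technical SDs in both, 5 members were higher (Ccne1, E2f2, Rrm2, Cenpe and Prc1) and Cdk6 and Cenpa were lower. Together they are 15.6% of the members, against 36.0% of genes at level 7 or more.

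**Figure D3:**
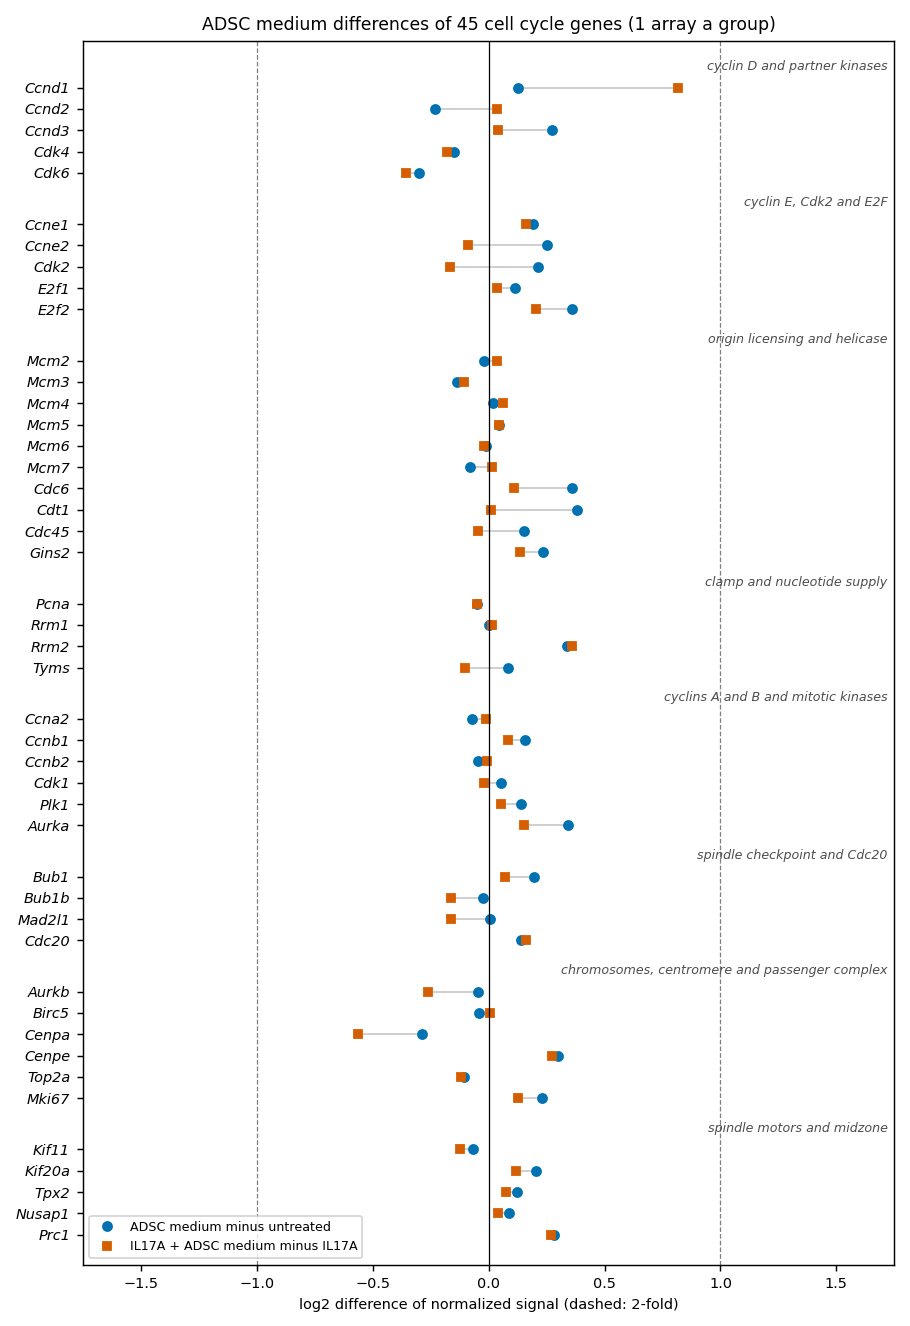
Log2 difference between arrays with and without ADSC medium for each gene, ordered by role, with 1 array a group. Circles are without IL17A (ADSC medium minus untreated) and squares with IL17A (both minus IL17A). Medium and slide cannot be told apart. Only Ccnd1 with IL17A, at 0.82, and Cenpa, at -0.56, pass 0.5 in size.

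Cells with both agents against untreated cells gave the largest median size of difference among the members, 0.16 against 0.24 for all genes. No member passed 2-fold, against 7.67% of 16241 genes. At 1.5-fold, Ccnd1 alone passed and was lower, against 19.7% of all genes in either direction and 10.5% lower. Ccnd1 lay close to this rule and fell short of it after median scaling and after normexp background correction. The median was 0.04, beside 0.03 for all genes, and 42 of 45 members lay within 0.5, or 93.3%, against 78.8% of all genes. This comparison shares an array with each of the others, so its values are not a separate line of evidence.

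The D cyclins are the part of the cycle that responds to growth signals. Ccnd1 had a level of 11.17 on the untreated array, 9.76 with IL17A, 11.30 in ADSC medium and 10.57 with both agents. Its probe was printed as 10 spots per array, and the SD of the spots was 0.061, 0.060, 0.062 and 0.083 in the same order. The spots of the IL17A array ran from 9.65 to 9.86 and those of the untreated array from 11.10 to 11.28, so they do not overlap. The spots of the array with both, from 10.37 to 10.66, lay between them, and those with ADSC medium, from 11.16 to 11.39, reached into the untreated range.

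In fold terms, Ccnd1 was 2.67-fold lower with IL17A alone (-1.42) and 1.65-fold lower when IL17A was given in medium (-0.73). Medium alone differed by 0.13 from untreated, and medium added to IL17A was 1.76-fold higher (0.82) than IL17A alone. With both agents Ccnd1 was still 1.52-fold lower than in untreated cells (-0.60). That value was 1.49-fold after median scaling and 1.44-fold after normexp background correction. The IL17A difference was thus smaller by 0.69 with medium than without, which rests on 1 array in each of the 4 corners. The size of this gap depends on the scaling. After median scaling the IL17A difference of Ccnd1 was -1.17 without medium and -0.98 in it, so the values lay much closer together. Spots share their RNA sample and array, so their spread measures the array alone. A single probe reports this gene, at mm9 chromosome 7, 152116173 to 152116232 on the minus strand, annotated in the file with a GenBank and not a RefSeq accession, and no second probe checks it.

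**Figure D4:**
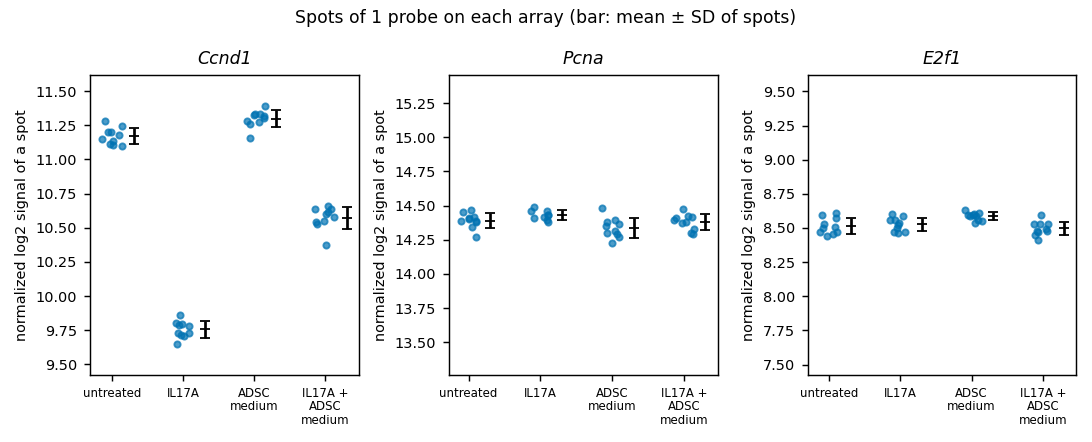
Normalized log2 signal of each spot for the probes of Ccnd1, Pcna and E2f1 that were printed many times on each array, with the mean and SD of the spots beside them; the panels span the same height. Ccnd1 spots separate by array, with IL17A lowest, while those of Pcna and E2f1 stay within one band.

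Ccnd2, the gene of cyclin D2, had levels of 13.25 untreated, 12.76 with IL17A, 13.02 in ADSC medium and 12.80 with both. It was below the untreated level on the other 3 arrays (with median scaling, medium alone lay above it by 0.06), and its 3 probes were all lower with IL17A, by -0.48, -0.45 and -0.34 without medium and by -0.22, -0.24 and -0.30 with it. Its brightest probe lies at mm9 chromosome 6, 127079694 to 127079753. Ccnd3, of cyclin D3, did not follow, at 12.09, 12.19, 12.37 and 12.23 in that order, with untreated lowest. Cdk4, a partner kinase of the D cyclins, was at 12.40, 12.54, 12.25 and 12.37, a spread of 0.29. Cdk6, the other partner, was at 11.79, 11.57, 11.49 and 11.22, so that it was highest in untreated cells and lowest with both (-0.57). A second Cdk6 probe was also lower with both (-0.54), and the remaining one, at level 5.31 in untreated cells, by -0.28. With both agents, 4 of these 5 genes were below untreated, with a median of -0.45 that lay between -0.37 and -0.43 under the other scalings. Of these 4, Cdk4 differed by only -0.03, less than the technical SD. Of all genes, 6941 of 14907 were below untreated in this comparison.

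Cyclin E and Cdk2 act next, at the entry to DNA synthesis. Ccne1 was at 11.57 untreated, 11.66 with IL17A, 11.76 in ADSC medium and 11.82 with both, which puts both medium arrays above both others by small steps. Its second, dimmer probe kept this order with larger steps. It gave 0.53 for medium and 0.69 for both against untreated, beside 0.19 and 0.25. Ccne2 was at 8.45, 8.74, 8.70 and 8.66, and its second probe went the other way against untreated each time, with -0.03 beside 0.30 for IL17A, -0.17 beside 0.25 for medium and -0.30 beside 0.21 for both. Cdk2, the kinase, was dim, at 4.74, 4.83, 4.96 and 4.66, and no difference of this probe reached 0.361. Its second probe, at mm9 chromosome 10, 128135214 to 128135273, was well above background only on the slide 1 arrays, at 3.37 and 3.54, and so was at least 1.87-fold lower with medium than untreated, at least 2.26-fold lower with both than with IL17A, and at least 2.01-fold lower with both than untreated. These bounds set the dim side to the lowest signal well above background on its array. The 2 Cdk2 probes thus disagree on the medium arrays.

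Among the factors released by the Rb proteins, E2f1 was at 9.55, 9.46, 9.67 and 9.49. Its second probe, with 10 spots, was at 8.52, 8.53, 8.59 and 8.50, which are within 0.09 of one another. E2f2 was at 9.46, 9.64, 9.82 and 9.84, lowest in untreated cells and higher on both medium arrays by 0.36 and 0.20 than on the matching arrays without it.

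Licensing loads the Mcm helicase, a ring of 6 related proteins, on replication origins before DNA synthesis. Mcm2, Mcm5 and Mcm4 had the smallest distances between arrays of all 45 members. Mcm2 was at 12.46 untreated, 12.44 with IL17A, 12.44 in ADSC medium and 12.47 with both. Mcm5 was at 13.03, 13.02, 13.07 and 13.07, and Mcm4 at 13.89, 13.87, 13.91 and 13.93. Each of these 3 spans less than the technical SD of a difference. Mcm6 was at 14.82, 14.71, 14.81 and 14.69, slightly lower on both arrays with IL17A (-0.11 and -0.12). Mcm7 was at 14.06, 14.13, 13.98 and 14.14, slightly higher on both. Mcm3 was at 14.27, 14.34, 14.13 and 14.24, and its second probe went the other way with medium alone (0.15 beside -0.14).

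The loaders of the ring lay further from their untreated levels than the ring genes did. Cdt1, which brings the Mcm ring to origins, was at 12.94 untreated, 13.47 with IL17A, 13.33 in ADSC medium and 13.48 with both. The untreated array was thus the low one, by 0.53, 0.38 and 0.54, and the 3 treated arrays were within 0.16 of one another. Its single probe lies at mm9 chromosome 8, 125096893 to 125096952. Cdc6, which loads the ring together with Cdt1, was at 9.20, 9.50, 9.56 and 9.61, also lowest in untreated cells. Its second probe agreed for the arrays with medium (0.28 and 0.20 above untreated) and not for IL17A alone (-0.05 beside 0.30). Cdc45 and Gins2 turn the loaded ring into the running helicase. Cdc45 was at 8.75, 8.95, 8.90 and 8.90, and Gins2 at 11.32, 11.38, 11.56 and 11.52, both again lowest in untreated cells.

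The genes of the sliding clamp and of nucleotide supply serve DNA synthesis itself. Pcna, the clamp, was at 14.39, 14.43, 14.34 and 14.38, from 9 spots on the IL17A array and 10 on the others. The spread of 0.09 between arrays is about that of its spots. Rrm1 and Rrm2 encode the subunits of ribonucleotide reductase. Rrm1 was at 13.28, 13.20, 13.28 and 13.22. Rrm2 was at 11.18, 11.32, 11.52 and 11.67, lowest in untreated cells and highest with both, with 0.34 and 0.36 for medium without and with IL17A. Tyms, thymidylate synthase, was at 13.60, 13.89, 13.69 and 13.79, highest with IL17A alone. A second Tyms probe gave 0.27 for IL17A beside 0.29, and another, dim probe, on a different accession, gave 0.74 for IL17A in medium beside 0.10.

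Cyclins A and B and their kinases drive the entry into mitosis. Ccna2 was at 13.27 untreated, 13.11 with IL17A, 13.20 in ADSC medium and 13.10 with both. Ccnb2 was similar in shape, at 13.42, 13.28, 13.38 and 13.27, so both genes were lower on the arrays with IL17A by 0.10 to 0.16 in size. Ccnb1 was at 10.86, 10.95, 11.01 and 11.03, lowest in untreated cells. Cdk1, the kinase these cyclins activate, was at 11.68, 11.79, 11.73 and 11.77, a spread of 0.11. Plk1, a kinase of mitotic entry and spindle assembly, was at 13.42, 13.50, 13.56 and 13.56. Aurka, the centrosome kinase Aurora A, was at 13.07, 13.20, 13.41 and 13.35, with both medium arrays above both others.

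The spindle checkpoint holds chromosome separation until all chromosomes are attached, and Cdc20 is the activator it restrains. Bub1 was at 10.71, 10.80, 10.91 and 10.87. Bub1b was at 10.16, 10.34, 10.14 and 10.17, with the IL17A array the high one. Mad2l1 was at 9.95, 10.05, 9.95 and 9.89, also highest with IL17A alone, and a second probe near the same level gave 0.12 for IL17A beside 0.11. Cdc20 was at 13.93, 13.95, 14.07 and 14.11. With IL17A alone all 4 genes were above untreated, by 0.01 to 0.17, as were 7472 of 14708 of all genes. They were above the all-gene median under each scaling, and 1 of the 4 differences passed 2 technical SDs. With medium present the IL17A differences ran from -0.06 to 0.03.

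Aurkb and Birc5 belong to the chromosomal passenger complex, which corrects spindle attachments. Aurkb was at 10.63, 10.74, 10.59 and 10.48, and Birc5 (survivin) at 15.41, 15.26, 15.37 and 15.27, lower on both arrays with IL17A. Cenpa, the histone H3 variant that marks centromeres, was at 11.39, 11.48, 11.10 and 10.91. It was lower on both medium arrays than on both others, by -0.29 without IL17A and -0.56 with it, and its one probe above background lies at mm9 chromosome 5, 30976729 to 30976788. Cenpe, the kinetochore motor, showed the opposite order, at 13.12, 13.07, 13.42 and 13.34, and its 2 other probes were also higher with medium alone, by 0.29 and 0.09.

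Top2a, the topoisomerase that untangles chromosomes, was at 11.07, 10.98, 10.97 and 10.86. Its second bright probe was also lowest with both (-0.53). The remaining Top2a probe went the other way, being well above background only with both agents, at 3.13. It was thus at least 1.725-fold higher with both than untreated, 1.575-fold than with medium and 1.306-fold than with IL17A. Mki67, the gene of the proliferation antigen Ki-67, was at 13.77, 13.76, 14.01 and 13.88, and differed by 0.02 in size between untreated and IL17A. Its second probe was at 11.86, 11.79, 11.89 and 11.69. Of this role, all 6 genes were lower when IL17A was given in medium than with medium alone, by 0.08 to 0.19 in size. All 6 were below the all-gene median under each scaling, though the scalings use the same arrays. Of these differences, 1 passed 2 technical SDs, and of all genes 8515 of 14920 were below 0.

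Spindle motors and midzone proteins build the spindle and the bridge at which cells divide. Prc1, which bundles midzone microtubules, was at 13.38, 13.21, 13.66 and 13.48, higher with medium by 0.28 and 0.27 and lower with IL17A by 0.17 and 0.18 in size. Nusap1, a spindle microtubule binder, was at 10.45, 10.25, 10.54 and 10.29, lower on both arrays with IL17A. Its second probe, at level 5.12 in untreated cells, gave 0.11 for IL17A alone beside -0.20. For IL17A in medium it gave -0.65 beside -0.25. Tpx2, which activates Aurora A on the spindle, was at 11.52, 11.56, 11.64 and 11.63. Kif20a, a motor of cytokinesis, was at 13.34, 13.47, 13.55 and 13.59. Kif11, the motor that separates the spindle poles, was at 9.27, 9.15, 9.20 and 9.03, lowest with both.

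The 3 Kif11 probes did not give one picture. A second probe on the same RefSeq transcript was at 6.36, 6.17, 5.76 and 5.29, which is -1.07 for both against untreated where the brightest probe gave -0.24. The remaining probe, on a clone accession, was below background only on the ADSC medium array, and so was at least 3.27-fold lower with medium than untreated and at least 3.16-fold higher with both than with medium. Among members with several measured probes, all probes had the same direction for 13 of 19 with IL17A alone, 14 of 18 for IL17A in medium, 13 of 18 for medium alone, 8 of 18 for medium added to IL17A and 11 of 18 for both against untreated. Many of these differences are of the size of the technical SD, so their sign carries little.

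The IL17A difference with medium minus that without was below 0 for 31 of the 45 members, with a median of -0.06, beside -0.03 for all genes bright on all arrays, of which 8162 of 14480 were below 0. It was below 0 for 17 of 21 mitosis genes, and above 0 for Ccna2 (0.06), Ccnb2 (0.04), Birc5 (0.05) and Cdc20 (0.02). It was furthest below 0 for Cdk2 (-0.38), Cdt1 (-0.37) and Ccne2 (-0.34), and furthest above for Ccnd1 (0.69) and Ccnd2 (0.27). The Ccnd2 value depends on the processing. Its IL17A differences without and with medium were -0.35 and -0.30 after normexp background correction. After median scaling they were -0.22 and -0.49, the reverse order, though -0.42 and -0.25 relative to the median of all genes. No member reached 1 in size, and 98 of the 9924 genes at level 7 or more did.

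Of the inhibitors and pocket proteins around this cycle, 1 of 10 passed the 2-fold rule, and it was Cdkn1a, the gene of the Cdk inhibitor p21 and a target of p53. Cdkn1a was at 9.72 untreated, 9.91 with IL17A, 11.09 in ADSC medium and 11.21 with both. The arrays with medium were both high and those without both low. It was 2.59-fold higher with medium than untreated, 2.46-fold higher with both than with IL17A, and 2.80-fold higher with both than untreated, from 1 probe, while IL17A gave 0.19 without medium. Over all genes, 5.42% passed 2-fold with medium against untreated, 6.33% with both against IL17A and 7.67% with both against untreated. These comparisons run across slides, so medium and slide cannot be told apart for this gene either.

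Other inhibitors named here were lower on the medium arrays than on the matching arrays without it. Cdkn1b (p27) was at 8.46, 8.21, 8.10 and 7.84, Cdkn1c (p57) at 7.69, 7.49, 7.25 and 6.71, and Cdkn2b (p15) at 13.08, 13.08, 12.81 and 12.45, each lowest with both agents. Cdkn2a, whose locus encodes p16 and p19Arf, was at 11.19, 11.30, 11.02 and 10.73. Against untreated, the array with both was lower by -0.62 for Cdkn1b, -0.98 for Cdkn1c, -0.63 for Cdkn2b and -0.47 for Cdkn2a. The other 2 probes of Cdkn1b gave -0.90 and -0.37. Of the 10 genes of this list, 8 were below 0 for medium added to IL17A, against 6982 of 14693 of all genes. For medium alone 6 were below 0, against 6497 of 14894 of all genes, and Cdkn2d (p19Ink4d), a further inhibitor, was at 0.08.

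Among 8 other E2F and DP factors, none passed 2-fold in any of the 5 comparisons, against 4.46% to 7.67% of all genes. E2f4, a repressing E2F, was at 7.72, 7.72, 7.20 and 7.05, and Tfdp2, a DP partner, at 9.35, 9.26, 9.07 and 8.69, each lowest with both agents by its brightest probe. Another Tfdp2 probe, at 7.46, 7.55, 7.65 and 7.55, was lowest in untreated cells, and gave 0.09 for both against untreated beside -0.66. E2f5, also a repressing E2F, went the opposite way, at 9.04, 9.01, 9.64 and 9.70, and E2f3 was at 9.47, 9.42, 9.68 and 9.78. Of 34 further replication genes none passed 2-fold, against the same shares of all genes. Orc1, of the complex that marks origins, was the furthest with IL17A, at 6.88, 7.50, 7.08 and 7.42, and was low in untreated cells. Orc5, of the same complex, was at 6.45, 6.74, 7.04 and 6.88, and its second probe was above background only with IL17A alone. Prim2, a primase subunit, was at 7.91, 7.94, 7.61 and 7.44, and Rpa1, which coats single-stranded DNA, at 12.99, 12.82, 12.77 and 12.57.

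Of 47 further mitosis genes, again none passed 2-fold. Anln, the gene of the cleavage furrow protein anillin, was at 9.05, 8.71, 8.51 and 8.13, and was 1.90-fold lower with both than untreated. A second Anln probe, at 8.59, 8.42, 8.65 and 8.44, gave -0.14 for both against untreated beside -0.92, and 0.07 for medium alone beside -0.55. Kif20b, another motor of cytokinesis, was at 10.01, 9.87, 9.43 and 9.32 by its brightest probe, and at 9.38, 9.34, 9.25 and 9.36 by another, which gave -0.02 for both against untreated beside -0.69. The probes of these 2 genes thus disagree on the size or sign of the medium differences. Smc4, a condensin subunit, was at 12.65, 12.46, 12.56 and 12.13, and its second probe was also lowest with both (-0.92). Kif2c, a microtubule depolymerase, was at 8.41, 8.78, 8.91 and 8.97. Its difference for both against untreated, 0.55, was the highest of the list. The median of these 47 genes was 0.01 for IL17A alone and -0.06 for IL17A in medium, and 34 of the 47 were below 0 in the latter. Of all genes, 8515 of 14920 were below 0 there, with a median of -0.03.

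**Figure D5:**
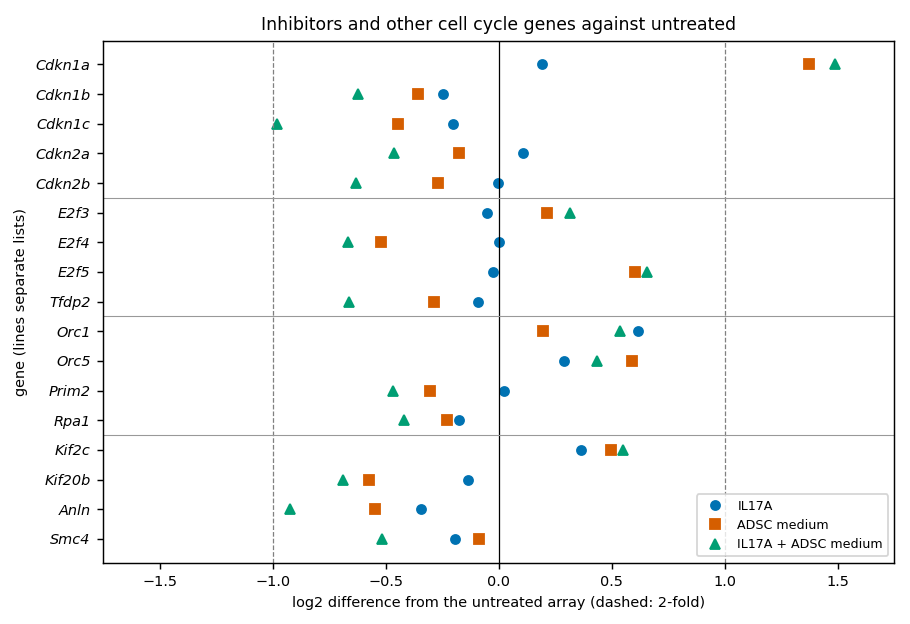
Log2 difference from the untreated array for 17 other genes of the pathway, with IL17A (circles), ADSC medium (squares) and both (triangles), 1 array a group, with lines between lists. Cdkn1a is the only gene past the dashed 2-fold lines, at 1.37 with medium and 1.49 with both, while Cdkn1c and the brightest probe of Anln lie furthest to the left with both.

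The authors' deposited table of probes higher with IL17A than in untreated cells lists 861 of the 41174 probes. Of the 75 member probes, 0 are among them. Their deposited table of probes higher with IL17A alone than with IL17A plus medium lists 1193 probes, again with 0 members. Each table holds a small share of the array, so these counts of 0 say little about the members. That second table of the authors holds probes of Anln, Cdkn1b, Cdkn2a and E2f4 from the lists above. Both tables cover one direction only, in which Ccnd1 would not appear, and the sources used here do not give their threshold.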

How the data were processed

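Total RNA of IMS/N cells was labelled with Cy3, per the labels' protocols, and read in 1 colour with Feature Extraction 12.1.1.1, per the file headers, with mm9 positions for the probes. The deposited intensity columns hold each spot's processed signal on a linear scale, from which the software had subtracted background, per the file headers; arrays were not yet brought to a common scale in them. Deposited score columns are flags of 0 or 1 (well above background, saturated, outlier), per the file headers. Quantile normalization is named in the series design text and R 3.5.1 in the submitters' processing notes; the log2 scale was set here from the deposited signals.

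Here the 4 arrays were quantile normalized on the log2 scale in limma 3.58.1 (R 4.3.3), without control spots and outlier spots (91 to 126 per array). Spots of a probe were averaged, and the brightest probe on average stood for its gene. Of 41174 probes, 28635 were named by RefSeq accession, 5747 by current symbol and 163 by older symbol; for 6554 the name in the file was used. A gene was called at a difference of 2-fold or more with its probe well above background on the brighter array (no fewer of its spots flagged so than not), a dim side being set to the array's lowest signal well above background or its own if higher. The rule was also run on simulated data that held spot noise only. That run cannot show how the rule fares with variation between cultures, hybridizations or slides, so no conclusion is drawn from it. Other steps used Python 3.11.15 and pandas 2.3.3.

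With 1 array a group, the number of arrays limits the precision and no test was made. The 45 members, the 4 lists of other genes and the motifs were chosen with earlier results of these data known; the count of differences past 2 technical SDs was added after the differences were seen. Every member is named. Of each other list, up to 4 genes with the largest difference were named, plus Cdkn1a, Cdkn1b and Cdkn2a. Alternatives were scaling to the 75th percentile or to the median, normexp (offset 50) on mean and background signals, a filter on all 4 arrays and none, the mean of probes, RefSeq-matched probes only and a 1.5-fold rule.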

Additional observations from a re-analysis of the deposited data

How the results depend on the processing

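No paired analysis was possible because each group has 1 array, and no array could be left out for the same reason. Ccnd1 stayed at least 2-fold lower with IL17A alone under each scaling and background correction (-1.42, -1.39, -1.17 and -1.34 with quantile, 75th percentile and median scaling and normexp). For IL17A given in medium, its values were -0.73, -0.77, -0.98 and -0.705 in the same order. The gap between the IL17A differences of Ccnd1 was thus smallest after median scaling. With RefSeq-matched probes only, 42 members remain and 0 are lower, since the probe of Ccnd1 has no RefSeq accession. With the mean of probes, 1 member, Cdk2, is lower with medium against untreated, with both against IL17A and with both against untreated, through the probe that is dim on slide 2. At 1.5-fold, 1 member, Ccnd1, is lower in both against medium, higher in both against IL17A and lower in both against untreated. The last of these calls is not stable. Ccnd1 fell short of the rule there after median scaling (1.49-fold) and after normexp (1.44-fold), and barely passed it after 75th percentile scaling.

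Against quantile normalization, median scaling shifted the median of all genes by 0.20, -0.21, 0.22, -0.18 and 0.03 in the 5 comparisons, in the order IL17A, IL17A in medium, medium, medium on IL17A and both. The member medians moved with it, to 0.31, -0.30, 0.37 and -0.19 in the first 4, and the median difference of the IL17A differences to -0.55. Relative to all genes, the member median was 0.07, -0.01, 0.05, 0.01 and 0.01 as reported. It was 0.11, -0.06, 0.11, -0.03 and 0.03 after median scaling, and 0.06, -0.01, 0.04, -0.03 and -0.02 after normexp, so its sign is not settled in the last 2. Genes called higher and lower among all genes were 345 and 363, 460 and 292, 394 and 479, 511 and 494, and 549 and 697; with 75th percentile scaling they were 263 and 533, 723 and 171, 269 and 655, and 775 and 372 in the first 4, and with normexp 97 and 66, 76 and 22, 49 and 110, 73 and 122, and 128 and 177. In that order they were 205 and 202, 286 and 148, 218 and 256, 374 and 337, and 330 and 426 among genes bright on all 4 arrays, and from 969 to 1270 higher and from 951 to 1412 lower without a filter. For single named genes, 245 of 310 values moved by more than the technical SD under median scaling and 23 of 310 under 75th percentile scaling, and none of the called ones changed direction. With 1 array a group, a difference cannot be set against variation between cultures, and below a level of 5 the technical SD alone is 0.361.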
